A study of Mus musculus with 20 samples.

Results

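The proximal part of mouse chromosome 8, from its start to position 48580000 (build mm9), was followed as 1 stretch of genes across reprogrammed and embryonic stem cell lines. Its members were the array's non-control probes with a position in that stretch and a spot that the scanner software scored well above background, on 4 or more of the 20 arrays. The array held 947 probes there, and 649 passed that filter, out of 38756 probes that passed it in the whole series. The 649 probes carried 437 gene names and ran from 3.15 Mb to 48.58 Mb. The boundary was picked because signal rose below it in 1 line, KH2_OSKM, so the values of KH2_OSKM here are a description and carry no test. A gene's mRNA level was measured, not the number of copies of the chromosome.

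The study asked whether induced pluripotent stem cells (iPSCs) made with Sall4, Nanog, Esrrb and Lin28 (SNEL) resemble embryonic stem cells (ESCs) more closely than those made with Oct4, Sox2, Klf4 and Myc (OSKM). Each of 10 lines was hybridised to 2 single-colour arrays, 20 arrays in all. The labels grade the iPSC lines without saying on what basis. The poor grade holds KH2_OSKM and the reporter lines Nanog-GFP OSKM#2 and Oct4-GFP OSKM#2. The good grade holds BC_2 OSKM and Nanog-GFP SNEL#3, and the high grade holds Nanog-GFP SNEL#2 and Oct4-GFP SNEL#1. The ESC controls are Oct4-GFP ESCs, KH2 ESCs and Nanog-GFP ESCs. Nanog-GFP and Oct4-GFP are names of reporters in which a pluripotency gene drives a green fluorescent protein; the labels do not describe KH2, BC_2 or the source cells further. All lines were grown untreated in 2i, a medium with inhibitors that holds mouse stem cells in a naive state, and without feeder cells. Each group is a small set of single lines. The labels do not say whether both arrays of a line stem from different cultures. The p-values of a line against the other lines thus measure the spread between arrays, which may be technical. Those between groups of lines were computed on line means and measure the spread between lines.

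Mouse pluripotent cells in long culture are prone to gain whole chromosomes or parts of them, and chromosome 8 is among those gained most often. An extra copy usually raises the mRNA of many genes along it by a modest and similar amount, and so a shift shared by neighbouring genes is looked for along the chromosome. With 3 copies against 2, a gene whose mRNA followed its copies would gain 0.58 on the log2 scale. The proximal part of chromosome 8 holds genes of several kinds, among them Zfp42 (Rex1), a zinc-finger gene used as a marker of naive pluripotency, the receptor gene Fgfr1, the lysosomal membrane gene Lamp1, the collagen pair Col4a1 and Col4a2, and the large defensin family of antimicrobial peptides.

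The promoters of 4 genes on which the results turn are shown, each with 250 bases before and 50 after the start of the gene, from RefSeq (GRCm38.p6). Zfp42, the marker of naive pluripotency, differed between lines, Lamp1 and Ankrd37 were high in KH2_OSKM, and Trappc11 holds the member nearest to the boundary. Capitals mark matches to 5 motifs, searched on both strands. The octamer bound by Oct4 was searched as ATGCAAAT, or ATTTGCAT on the other strand. The GC box was searched as GGGCGG and the inverted box as CCGCCC. The CCAAT box was searched by its own letters and, inverted, as ATTGG. The E-box was searched as CACGTG, which reads alike on both strands. The TATA sequence was searched as TATAAA and, inverted, as TTTATA. No match overlapped another in these 4 promoters. The windows are Zfp42 at chr8:43306960-43307259 on the minus strand, Lamp1 at chr8:13158911-13159210 on the plus strand, Ankrd37 at chr8:45999801-46000100 on the minus strand and Trappc11 at chr8:47533421-47533720 on the minus strand.
Zfp42: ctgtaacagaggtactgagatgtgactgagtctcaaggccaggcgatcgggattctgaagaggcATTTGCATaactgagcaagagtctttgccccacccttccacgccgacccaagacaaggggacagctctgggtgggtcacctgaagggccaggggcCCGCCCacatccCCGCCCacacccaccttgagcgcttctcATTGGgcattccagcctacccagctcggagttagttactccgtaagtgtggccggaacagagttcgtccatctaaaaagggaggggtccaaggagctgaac
Lamp1: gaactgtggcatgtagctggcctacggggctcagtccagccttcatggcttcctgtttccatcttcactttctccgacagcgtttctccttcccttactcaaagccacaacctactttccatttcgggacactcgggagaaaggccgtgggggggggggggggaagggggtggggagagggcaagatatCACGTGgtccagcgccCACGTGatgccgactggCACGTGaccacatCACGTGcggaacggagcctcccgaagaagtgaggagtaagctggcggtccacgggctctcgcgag
Ankrd37: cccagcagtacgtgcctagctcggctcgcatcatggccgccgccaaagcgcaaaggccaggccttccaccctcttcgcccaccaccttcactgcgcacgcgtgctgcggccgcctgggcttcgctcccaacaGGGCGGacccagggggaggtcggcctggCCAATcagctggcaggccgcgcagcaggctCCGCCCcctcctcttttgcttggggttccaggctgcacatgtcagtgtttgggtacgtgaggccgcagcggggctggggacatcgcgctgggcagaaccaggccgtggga
Trappc11: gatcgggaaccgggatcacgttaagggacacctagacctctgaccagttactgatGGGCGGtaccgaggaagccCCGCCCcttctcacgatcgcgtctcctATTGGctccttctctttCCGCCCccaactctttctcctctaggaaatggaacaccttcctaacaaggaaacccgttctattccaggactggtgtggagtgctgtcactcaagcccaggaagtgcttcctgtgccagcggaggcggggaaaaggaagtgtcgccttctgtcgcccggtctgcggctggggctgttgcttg

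The RefSeq table gave promoters for 108 of the 437 gene names, 139 promoters of 32851. Zfp42 had 1 octamer, 2 GC boxes and 1 CCAAT box, and Lamp1 had 4 E-boxes. The octamer stood in 2.88% of the members' promoters and in 1.74% of all promoters of this length, and the E-box in 8.63% and 7.15%. The GC box stood in 46% and 35.7%, the CCAAT box in 43.9% and 37.4%, and the TATA sequence in 12.9% and 13.6%. The members' promoters had a median GC content of 58% against 52.7% for all.

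Of the 649 members, 226 (34.8%) were named only by a position, against 25.2% of all probes. Of these, 3 probes are printed because they recur in the results below. The first pair lies in chr8:12535648-12544923_R, at chr8:12541262-12541321 and chr8:12541322-12541381 on the minus strand. Another lies in chr8:48476637-48492537_F, at chr8:48484736-48484795 on the plus strand, next to the boundary. All positions of probes are in mm9, as the files give them.
chr8:12541262-12541321: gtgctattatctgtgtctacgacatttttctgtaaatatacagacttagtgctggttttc
chr8:12541322-12541381: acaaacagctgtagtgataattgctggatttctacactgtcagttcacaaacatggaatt
chr8:48484736-48484795: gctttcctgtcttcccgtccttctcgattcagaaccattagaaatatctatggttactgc

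Values below are log2 signals after subtraction of each array's 75th percentile, called the level. For each probe, the line's mean level minus the median of the 10 lines is called the difference. The share of probes well above background ran from 48.9% to 77.2% over the arrays, and it was highest on KH2_OSKM replicate 1, with 58.3% on replicate 2 of that line. The correlation between the 2 arrays of a line ran from 0.971 in KH2_OSKM to 0.99. All 12 markers of pluripotent cells were well above background on both arrays of every line. The summed signal of 10 fibroblast markers, relative to the 75th percentile, ran from 1.94 to 5.06 in the OSKM and the Nanog-GFP SNEL lines, was 12.6 in Oct4-GFP SNEL#1 and ran from 8.19 to 14.8 in the ESC lines. The part of these in the results was not tested. The number of arrays, 2 per line, limits the precision.

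KH2_OSKM, Nanog-GFP OSKM#2 and Oct4-GFP ESCs had the highest median differences over the 649 members. The median of KH2_OSKM was 0.285, with 0.393 on replicate 1 and 0.142 on replicate 2. The middle of the distribution, from the lower to the upper quartile, ran from 0.004 to 0.7, and 76.3% of the members lay above 0. Nanog-GFP OSKM#2 stood at 0.166 (0.18 and 0.163 on its arrays), and Oct4-GFP ESCs at 0.155 (0.135 and 0.184). These 3 lines stood above 0 on both arrays. Their order turned with the processing: quantile scaling gave 0.116 in KH2_OSKM against 0.194 in Nanog-GFP OSKM#2 and 0.134 in Oct4-GFP ESCs, the authors' deposited table gave 0.083 against 0.132 and 0.103, and leaving out KH2_OSKM replicate 1 gave 0.142 against 0.173 and 0.168. KH2 ESCs had a median of 0.015 (0.026 and -0.021), close to 0. Oct4-GFP SNEL#1 was lowest at -0.166 (-0.28 and -0.122), and BC_2 OSKM stood at -0.109 (-0.078 and -0.121). Oct4-GFP OSKM#2 had a median of -0.058 (-0.039 and -0.067), Nanog-GFP SNEL#3 of -0.042 (0.008 and -0.098), Nanog-GFP SNEL#2 of -0.034 (-0.036 and -0.021) and Nanog-GFP ESCs of -0.041 (-0.046 and -0.062). These 4 lie within the pooled SD between arrays of a line, 0.073, of each other. Over all probes the line medians ran from -0.075 in Oct4-GFP SNEL#1 to 0.046 in Oct4-GFP ESCs, with 0.039 in KH2_OSKM (0.125 and -0.065 on its arrays), which quantile scaling moved to -0.064, so the values relative to all probes are given too. In RNA from many cells, a change in every cell and a larger change in some of them cannot be told apart, nor can fewer cells of a type and less RNA per cell.

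**Figure D1:**
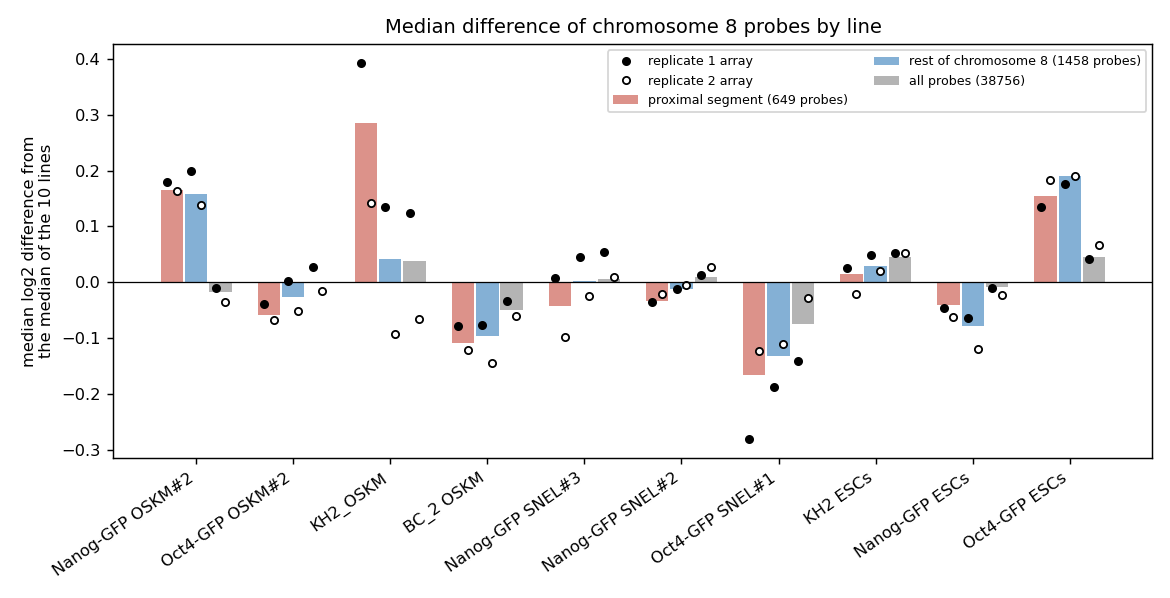
Median log2 difference from the median of the 10 lines, by line, over the 649 members on proximal chromosome 8, over distal chromosome 8 and over all probes; small points are the 2 arrays. KH2_OSKM is high on the proximal members (0.285) and near 0 beyond the boundary (0.042), whereas Nanog-GFP OSKM#2 and Oct4-GFP ESCs are high on both.

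The same arrays gave a reference beyond the boundary, where 1458 probes passed the filter. KH2_OSKM had a median of 0.042 there, so that its proximal median exceeded the distal one by 0.243 (0.259 and 0.235 on its arrays). In the other 9 lines this gap ran from -0.045 to 0.037. Nanog-GFP OSKM#2 had distal and proximal medians of 0.159 and 0.166, and Oct4-GFP ESCs of 0.19 and 0.155. In both lines the medians of both parts of chromosome 8 thus stood high, though not every bin did, as given below. Relative to the line's median over all probes, the proximal members stood at 0.246 in KH2_OSKM, 0.184 in Nanog-GFP OSKM#2 and 0.109 in Oct4-GFP ESCs, and from -0.091 to -0.03 in the other 7 lines. The other 19 chromosomes, each taken whole, lay between -0.042 and 0.042 in KH2_OSKM on that scale, between -0.035 and 0.021 in Nanog-GFP OSKM#2 and between -0.034 and 0.038 in Oct4-GFP ESCs. Over 8 settings of the processing these values stayed positive in all 3 lines, from 0.135 to 0.269 in KH2_OSKM, from 0.086 to 0.198 in Nanog-GFP OSKM#2 and from 0.043 to 0.122 in Oct4-GFP ESCs. The proximal minus distal gap of KH2_OSKM restates the choice of the boundary, so only its size is described over these 8 settings. It ran from 0.123 in the authors' deposited value table to 0.291 on the replicate 1 arrays alone. Quantile scaling gave 0.173 and normexp background correction 0.142.

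Members named by a gene and members named by a position did not carry the shift equally. In KH2_OSKM the 423 gene-named members had a median of 0.319 against 0.024 for all gene-named probes. The 226 position-named members had 0.211 against 0.1. In Nanog-GFP OSKM#2 the members' medians were 0.173 and 0.16, against -0.026 and 0.009 for all such probes. In Oct4-GFP ESCs the order was reversed, with 0.093 for gene-named and 0.286 for position-named members, against 0.026 and 0.155 for all such probes. Of the 127 genes with several member probes, 81 had every probe above 0 in KH2_OSKM and 9 had every probe at or below 0. Probes of 1 gene could disagree: for Elavl1, an RNA-binding protein gene, the KH2_OSKM difference was 1.48 at position 4285514 and 0.02 on the brightest probe at 4288411.

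A difference above 0.58, the gain that 3 copies against 2 would give if mRNA followed copies, was seen for 206 members in KH2_OSKM, 31.7% of the 649. The same held for 19.3% of all probes and 20.5% of distal probes in that line. Dim probes on replicate 1 weigh in these shares. Members dimmer than the median probe had KH2_OSKM medians of 0.735 on replicate 1 and 0.082 on replicate 2, and the brighter members 0.233 and 0.232. In Nanog-GFP OSKM#2, 116 members passed 0.58, which is 17.9% against 8.15% of all probes and 16.1% of distal probes. In Oct4-GFP ESCs, 95 members passed it, 14.6% against 9.94% and 12.3%. In the other 7 lines the share of members ran from 3.24% to 8.47%. For all probes it ran from 6.12% to 9.93% in these lines, and for distal probes from 3.5% to 7.06%. The proximal medians of all 3 high lines were well below 0.58.

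Along the chromosome, all 13 bins of 4 Mb stood above the all-probe median of KH2_OSKM, with bin medians from 0.103 to 0.519. In narrower bins of 2 Mb this held for 18 of 22, with a lowest bin of -0.193, so some short stretches did not carry the shift. In bins of 40 successive probes it held for 17 of 17. The highest were 0.519 at 36 to 40 Mb (34 probes), 0.498 at 40 to 44 Mb (74 probes) and 0.448 at 28 to 32 Mb (22 probes). The lowest were 0.103 at 8 to 12 Mb, 0.113 at 16 to 20 Mb and 0.159 at 20 to 24 Mb. In the last 2 of these, replicate 2 was below 0, at -0.085 and -0.044, and replicate 1 was at 0.294 and 0.319. In those 3 low bins Nanog-GFP OSKM#2 was higher, at 0.412, 0.407 and 0.466. KH2_OSKM was highest of the lines in 9 bins, and Nanog-GFP OSKM#2 in 4, counting a tie at 16 to 20 Mb with Oct4-GFP ESCs, which also had 0.407. Nanog-GFP OSKM#2 was above its all-probe median in all 13 bins and Oct4-GFP ESCs in 10, against 1 to 3 bins in each other line. The last bin, 48 to 48.58 Mb, held 6 probes and is thin.

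The boundary itself was not sharp. Just beyond it, KH2_OSKM still had a median of 0.426 at 48.58 to 52 Mb (30 probes), where Oct4-GFP ESCs had 0.617. It had 0.573 at 52 to 56 Mb, on 11 probes only, with 0.627 on replicate 1 and -0.011 on replicate 2. At 56 to 60 Mb it had 0.212, with 0.59 and -0.11 on its arrays, and at 64 to 68 Mb 0.417, with 0.633 and 0.385. Beyond the boundary 12 of 21 bins stood above the line's all-probe median in KH2_OSKM, 20 in Nanog-GFP OSKM#2 and 17 in Oct4-GFP ESCs. The KH2_OSKM arrays differed there: 15 distal bins lay above 0 on replicate 1 and 4 on replicate 2. Distal probes dimmer than the median probe gave 0.634 on replicate 1 and -0.097 on replicate 2, and the brighter ones -0.081 and -0.09.

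**Figure D2:**
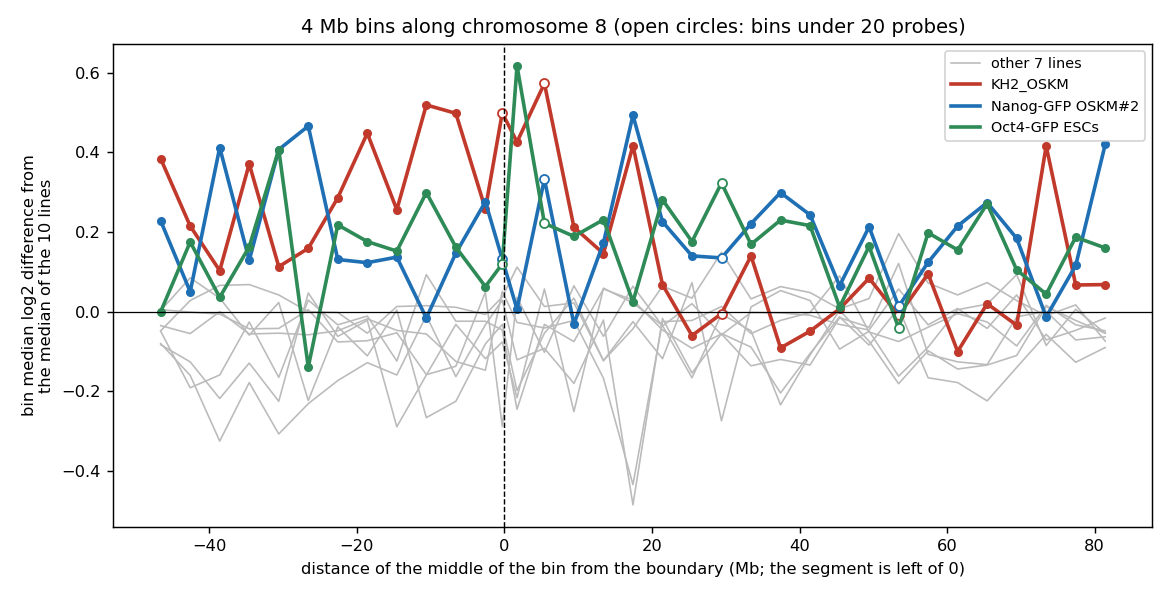
Median log2 difference in 4 Mb bins along chromosome 8 for each line, against the distance of the bin's middle from the boundary in Mb. The vertical line is the boundary, which lies at 48.58 Mb, with the proximal members to its left. KH2_OSKM lies above 0 in all bins before the boundary and still at 0.426 in the first bin after it.

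The members next to the boundary are given one by one. Trappc11, which encodes a subunit of a complex for vesicle traffic, holds the nearest member inside, at chr8:48576052-48576111. Its levels in KH2_OSKM were 2.87 and 2.86, and the other 18 arrays ran from 1.97 over a median of 2.34 to 2.66. KH2_OSKM thus lay above every other array, with Nanog-GFP OSKM#2 next at 2.66 and 2.62. The probe of chr8:48476637-48492537_F printed above had 4.49 and 4.17 in KH2_OSKM, and 2.85 and 3.48 in KH2 ESCs, but the second probe of that stretch, at 48485091, had a KH2_OSKM difference of -0.26. The 5 nearest genes inside had KH2_OSKM differences of 0.52 (Trappc11), 0.8 (chr8:48476637-48492537_F), 0.73 (chr8:48476637-48492537_R, well above background on 1 of the line's 2 arrays), 0.48 (chr8:48480224-48480698_R) and 0.02 (Stox2). The 5 nearest outside had 0.42 (ENSMUST00000120987), 0.5 (Rwdd4a), -0.09 (Ing2), -0.27 (AA386476) and 0.58 (Cdkn2aip). Inside, 4 of the 5 lay between 0.48 and 0.8, and outside, 3 of the 5 lay between 0.42 and 0.58 and the other 2 below 0.

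To see which members set a line apart, each line was compared with the other 9 by limma on all 38756 probes, at a Benjamini-Hochberg adjusted p under 0.05. These comparisons share arrays, and KH2_OSKM is 1 of the 9 reference lines in each of the others. Nanog-GFP OSKM#2 had 197 members higher (30.4%, against 13.9% of all probes) and 36 lower (5.55% against 14.4%). Distal chromosome 8 gave 35.6% higher and 6.58% lower. Oct4-GFP ESCs had 161 members higher (24.8%, against 13.1% of all probes) and 45 lower (6.93% against 10.8%), and the distal part gave 30.9% and 5.28%. In both lines the shares were on the same side of the background before and beyond the boundary. Without replicate 1 of Oct4-GFP ESCs, 119 members were called there in either direction, and without replicate 2, 131, against 206 with both. In KH2_OSKM, where the rule used the contrast and nothing is read from the counts, 250 members were past the threshold and higher (38.5%, against 19.5%) and 36 lower (5.55% against 18.6%).

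In the remaining lines more members fell than rose. Oct4-GFP SNEL#1 had 191 lower (29.4%, against 20.8% of all probes) and 43 higher (6.63% against 11.9%). BC_2 OSKM had 159 lower (24.5% against 20.1%) and 87 higher (13.4% against 17%). Oct4-GFP OSKM#2 had 117 lower (18% against 12.1%) and 62 higher (9.55% against 15.1%). In each of these 3 lines the members were called lower more often than probes at large and higher less often, a description with no test of the difference. The same held in Nanog-GFP SNEL#2, in Nanog-GFP ESCs and, in the main setting, in Nanog-GFP SNEL#3, all given next. Nanog-GFP SNEL#2 had 124 lower (19.1% against 14.3%) and 76 higher (11.7% against 16.4%). Nanog-GFP ESCs had 104 lower (16% against 12.5%) and 38 higher (5.86% against 10.9%). KH2 ESCs had 84 lower (12.9% against 13%) and 55 higher (8.47% against 16.7%), so its lower share was at the background. Calls in both directions fell from 179 to 107 and 106 without replicate 1 and without replicate 2 in Oct4-GFP OSKM#2, from 200 to 105 and 117 in Nanog-GFP SNEL#2, and from 142 to 72 without replicate 2 in Nanog-GFP ESCs. Nanog-GFP SNEL#3 had 137 lower (21.1% against 16%) and 91 higher (14% against 21.3%), and this split turned with the processing: normexp background correction gave 106 lower and 148 higher, and no filter on dim probes 131 lower and 146 higher.

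**Figure D3:**
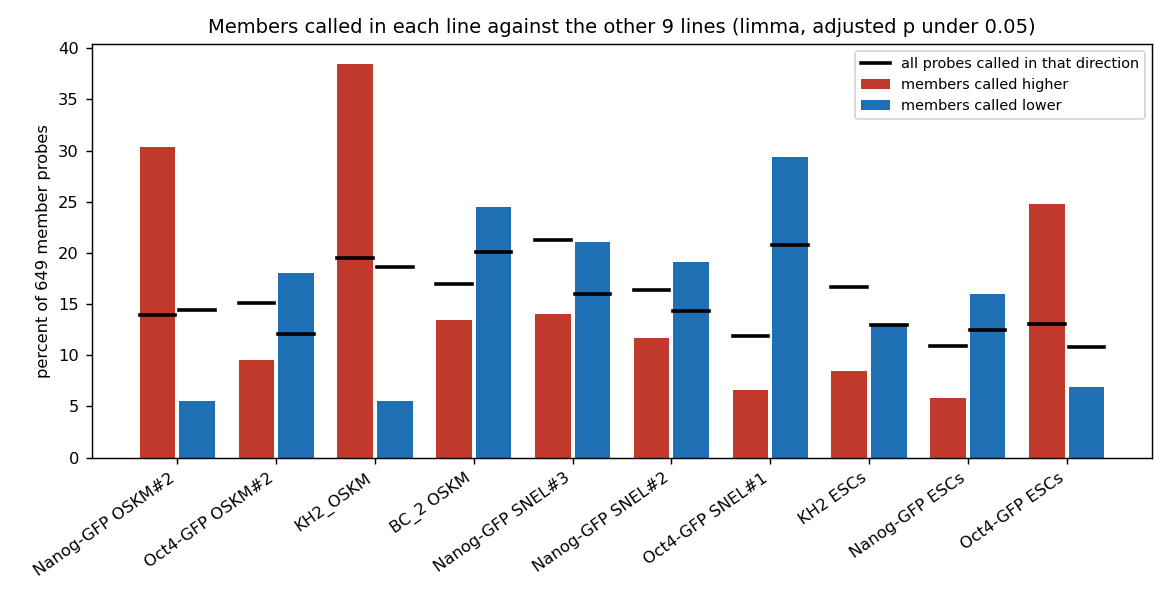
Percent of the 649 members past the threshold (limma, adjusted p under 0.05) as higher or lower in each line against the other 9, beside the same percent over all probes. Higher calls exceed the background in Nanog-GFP OSKM#2 (30.4% against 13.9%) and Oct4-GFP ESCs (24.8% against 13.1%); the KH2_OSKM bars are drawn for completeness, since the boundary was picked on that line and nothing is read from them.

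Compared by grade, no member was called, but neither was any other probe. With 2 or 3 lines per grade, these calls cannot decide whether the members differ. The proximal median was 0.131 ± 0.174 in the poor lines (SD, n = 3), -0.076 ± 0.047 in the good lines (n = 2), -0.1 ± 0.093 in the high lines (n = 2) and 0.043 ± 0.101 in the ESC lines (n = 3). By factors it was 0.071 ± 0.186 in the OSKM lines (n = 4) and -0.081 ± 0.074 in the SNEL lines (n = 3). With lines as the unit, limma called 0 members in the poor, good and high lines against the ESC lines, where 0% of all probes were called in either direction. It also called 0 members between SNEL and OSKM lines, where 0.00258% of all probes were called higher and 0% lower. At an unadjusted p under 0.05, limma passed 61 members in poor lines (9.4%, against 9.07% of all probes), 29 in good lines (4.47% against 5.86%), 32 in high lines (4.93% against 5.62%) and 78 between SNEL and OSKM lines (12% against 9.42%). The median member was 0.148 higher in poor than in ESC lines, against -0.025 for the median probe of all. Without KH2_OSKM these were 0.036 and -0.044. The median member difference from ESC lines was -0.127 in good lines (-0.057 over all probes) and -0.159 in high lines (-0.071). Between SNEL and OSKM lines it was -0.166 (-0.014 over all probes), and -0.083 without KH2_OSKM (0.013).

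The members were then described by role, with no test of a role. The background is the share of all members called (all probes in brackets). Higher calls made up 30.4% (13.9%) in Nanog-GFP OSKM#2, 24.8% (13.1%) in Oct4-GFP ESCs and 13.4% (17%) in BC_2 OSKM. Lower calls made up 29.4% (20.8%) in Oct4-GFP SNEL#1, 24.5% (20.1%) in BC_2 OSKM and 21.1% (16%) in Nanog-GFP SNEL#3. In KH2_OSKM, on which the boundary was picked, 76.3% of members lay above 0, so its values by role are a description. Among the pluripotency and germline genes, 4 of 6 listed genes were measured, and KH2_OSKM had a median difference of 0. Zfp42 (chr8:44380667-44380726, RefSeq promoter above) had levels of 6.77 and 6.6 in Nanog-GFP OSKM#2, 5.62 and 5.81 in KH2_OSKM and 5.88 and 5.92 in BC_2 OSKM. It had 4.06 and 4.19 in Oct4-GFP OSKM#2 and 4.15 and 4.04 in Oct4-GFP SNEL#1, against 5.94 to 6.27 on the 6 ESC arrays. The Nanog-GFP SNEL lines stood between 6.19 and 6.65. Both low lines lay clear of the other 16 arrays, and they carry different factors and different grades. Against the other 9 lines, Zfp42 was lower by limma in Oct4-GFP OSKM#2 (-1.82 ± 0.07 (SE), adjusted p = 8.14e-09) and in Oct4-GFP SNEL#1 (-1.86 ± 0.07, adjusted p = 3.8e-09), and higher in Nanog-GFP OSKM#2 (1.02 ± 0.07, adjusted p = 3.71e-07).

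Triml2, a tripartite-motif-like gene next to Zfp42, fell in Oct4-GFP OSKM#2 by limma (-0.98 ± 0.08, adjusted p = 5.16e-06) and in Oct4-GFP SNEL#1 (-0.56, adjusted p = 0.000294), and rose in Nanog-GFP OSKM#2 (0.51, adjusted p = 0.000637). Its neighbour Triml1 was called lower in Oct4-GFP ESCs (-5.79 ± 1.92, limma adjusted p = 0.0484), but this rests on 1 array: replicate 1 had a level of 4.13 and replicate 2 -8.05, where the spot was not well above background, while the other 18 arrays ran from 2.63 to 4.69. Tex15, a gene needed for meiosis in the male germline, had -2.62 and -2.68 in BC_2 OSKM, and the other 18 arrays ran from -1.3 over a median of -0.34 to 0.59. BC_2 OSKM lay below all of them (-2.34 ± 0.16, limma adjusted p = 4.11e-07).

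Of the 12 genes listed for growth factor and insulin signalling, 11 were measured, and in Nanog-GFP OSKM#2 6 were called higher and 3 lower. Fgfr1, a receptor for fibroblast growth factors, had 4.35 and 4.25 in Nanog-GFP OSKM#2 against 3.21 to 4.06 on the other 18 arrays, median 3.77. It was higher there (0.59 ± 0.08, limma adjusted p = 0.000112) and lower in BC_2 OSKM (-0.53, adjusted p = 0.000172), which held the lowest arrays at 3.21 and 3.39. Of its 3 probes, that at 26685820 did not show the rise in Nanog-GFP OSKM#2, with a difference of 0.02. Angpt2, a ligand of the Tie2 receptor of blood vessels, had -1.75 and -2.08 in Nanog-GFP OSKM#2, and the other 18 arrays ran from -4 over a median of -3.38 to -2.28 (1.35 ± 0.11, limma adjusted p = 2.65e-06). Gas6, a ligand of the TAM receptors, stood lowest in Nanog-GFP ESCs at 1.26 and 0.89, against 1.48 to 2.48 elsewhere. In KH2_OSKM, 10 of the 11 genes stood above 0, with a median of 0.52. Insr, the insulin receptor gene, gave -1.22 on both KH2_OSKM arrays, above the other 18, which ran from -3.26 over a median of -2.53 to -1.5.

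All 17 genes found on the stretch from the list for cell cycle, DNA repair and chromatin were measured. In Nanog-GFP OSKM#2, 10 were called higher and 2 lower (1 of these Irf2, not well above background there), with a median of 0.16, and in Oct4-GFP ESCs 10 higher and 1 lower, with a median of 0.1. In BC_2 OSKM 9 were lower and 2 higher (median -0.31), and in Oct4-GFP SNEL#1 8 were lower and 1 higher (median -0.11). KH2_OSKM had 16 of 17 above 0, with a median of 0.31. The exception was Ing1, a chromatin-reader gene, at -0.14.

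Cul4a, the scaffold of a ubiquitin ligase, had 3.29 on both KH2_OSKM arrays, and the other 18 ran from 2.41 over a median of 2.59 to 2.82. Cdc16, a subunit of the anaphase-promoting complex, had 4.54 and 4.62 in KH2_OSKM, against 3.74 to 4.31 on the other arrays, median 3.92. Neither gene overlapped between KH2_OSKM and the rest. Oct4-GFP ESCs held the next-highest Cdc16 levels, 4.29 and 4.31 (0.31, limma adjusted p = 0.00222). Ash2l, a subunit of the complexes that methylate histone H3, overlapped: it had 6.53 and 6.45 in KH2_OSKM and 6.44 and 6.55 in Nanog-GFP OSKM#2 (0.34 ± 0.05, limma adjusted p = 0.000188). Wrn, a DNA helicase gene, had -0.76 and -0.98 in Nanog-GFP OSKM#2, above the other 18 arrays (-2.86 to -1.45, median -1.81; 1 ± 0.07, limma adjusted p = 6.78e-07). Nsd3, a histone methyltransferase gene, had 1.02 and 0.95 there, against -0.62 to 0.57 (0.91 ± 0.06, limma adjusted p = 9.09e-07). Lig4, the ligase of non-homologous end joining, was higher in Nanog-GFP OSKM#2 (0.47 ± 0.04, limma adjusted p = 9.13e-06) and in Oct4-GFP ESCs (0.5 ± 0.04, adjusted p = 1.06e-05). It was lower in BC_2 OSKM (-0.44) and Oct4-GFP SNEL#1 (-0.42), whereas KH2_OSKM stood at 0.04.

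**Figure D4:**
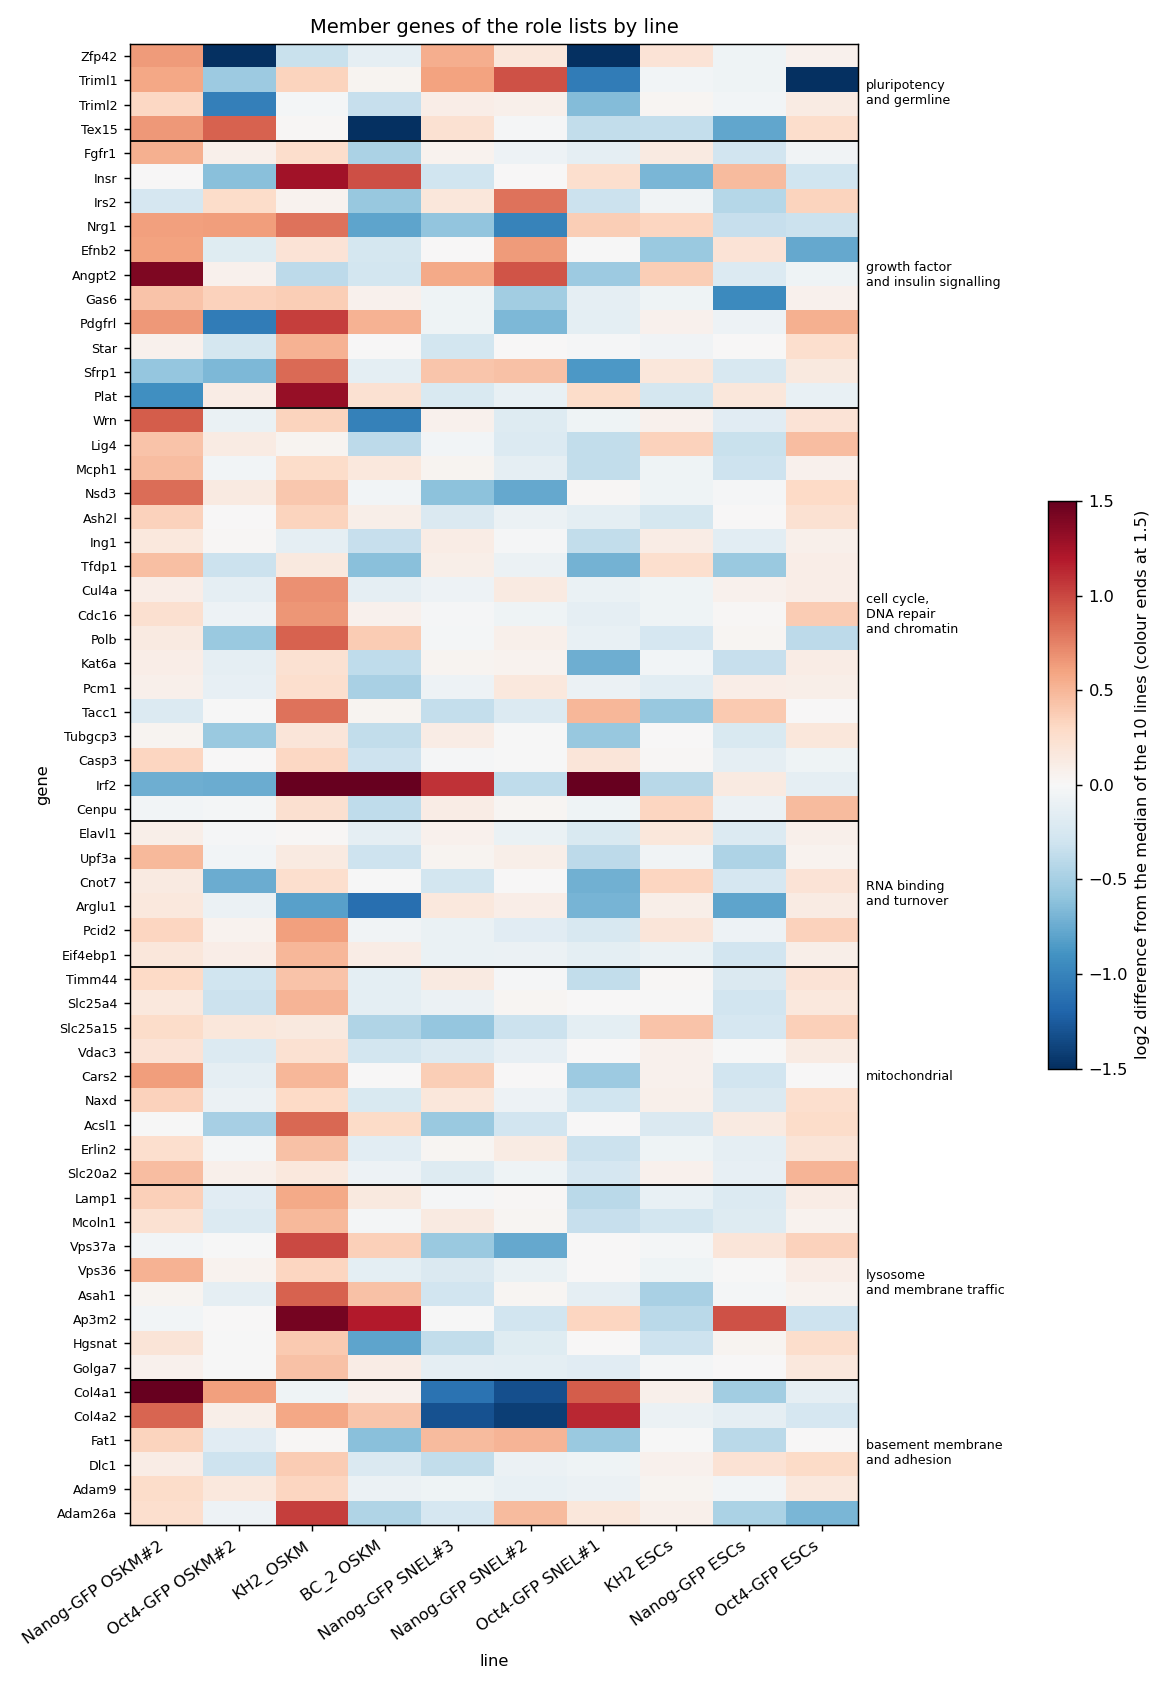
Log2 difference from the median of the 10 lines for 61 genes of the role lists (defensins left out), with genes grouped by role and lines in columns; colours end at -1.5 and 1.5. The KH2_OSKM column is above 0 for most genes, with exceptions such as Zfp42 (-0.33), Angpt2 (-0.39) and Arglu1 (-0.82); the Irf2 value rests on a probe well above background on 6 of 20 arrays.

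The 9 genes of the list headed mitochondrial were all above 0 in KH2_OSKM, with a median of 0.43. The list takes in Erlin2 and Slc20a2, whose proteins are not mainly mitochondrial. Slc25a4, the ADP/ATP carrier of the inner membrane, had 7.53 and 7.51 there, and the other 18 arrays ran from 6.61 over a median of 6.97 to 7.24, with no overlap. In Nanog-GFP OSKM#2, 7 of the 9 were called higher and 0 lower, and in Oct4-GFP ESCs 5 and 0. In BC_2 OSKM 5 were lower and 1 higher, and in Oct4-GFP SNEL#1 5 were lower and 0 higher. Timm44, part of the motor that imports proteins into mitochondria, was higher in Nanog-GFP OSKM#2 (0.33 ± 0.05, limma adjusted p = 0.000168) and Oct4-GFP ESCs (0.23 ± 0.05, adjusted p = 0.00271) and lower in Oct4-GFP SNEL#1 (-0.42 ± 0.05, adjusted p = 2.68e-05). Cars2, the mitochondrial cysteinyl-tRNA synthetase, had 2.87 and 2.84 in Nanog-GFP OSKM#2, just above the other 18 arrays, which reached 2.83 (0.63 ± 0.07, limma adjusted p = 2.08e-05).

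The 8 genes for lysosomes and membrane traffic were also all above 0 in KH2_OSKM, with a median of 0.53. Lamp1 (chr8:13175277-13175336) had 7.77 and 7.83 there, and the other 18 arrays ran from 6.73 over a median of 7.22 to 7.68. Nanog-GFP OSKM#2 came next, at 7.68 and 7.5 (0.37 ± 0.08, limma adjusted p = 0.00377), and Oct4-GFP SNEL#1 was lowest at 6.93 and 6.73 (-0.48, adjusted p = 0.00058). Asah1, the acid ceramidase, had 4.67 and 4.84 in KH2_OSKM, above the others, which ran from 3.18 over a median of 3.82 to 4.48. Ap3m2, a subunit of the AP-3 coat, was among the 10 members with the largest KH2_OSKM difference, at 1.43, and it also stood at 1.19 in BC_2 OSKM and 0.95 in Nanog-GFP ESCs. Nanog-GFP SNEL#3 had 6 of the 8 lower and 0 higher.

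Of the 6 genes for RNA binding and turnover, 5 stood above 0 in KH2_OSKM, with a median of 0.19. Eif4ebp1, which holds back cap-dependent translation, had 8.01 and 7.87 there, and the other 18 arrays ran from 7.04 over a median of 7.39 to 7.65. Arglu1, a splicing regulator, was the exception: it had 4.1 and 4.29 in KH2_OSKM and 3.82 and 3.96 in BC_2 OSKM, below the median of 4.98. In Oct4-GFP SNEL#1 all 6 were called lower, with a median of -0.32. In Nanog-GFP OSKM#2, 3 were higher and 0 lower. Upf3a, a nonsense-mediated decay factor, was 1 of them, with 3.3 on both arrays against at most 3.02 elsewhere (0.6 ± 0.11, limma adjusted p = 0.00128).

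**Figure D5:**
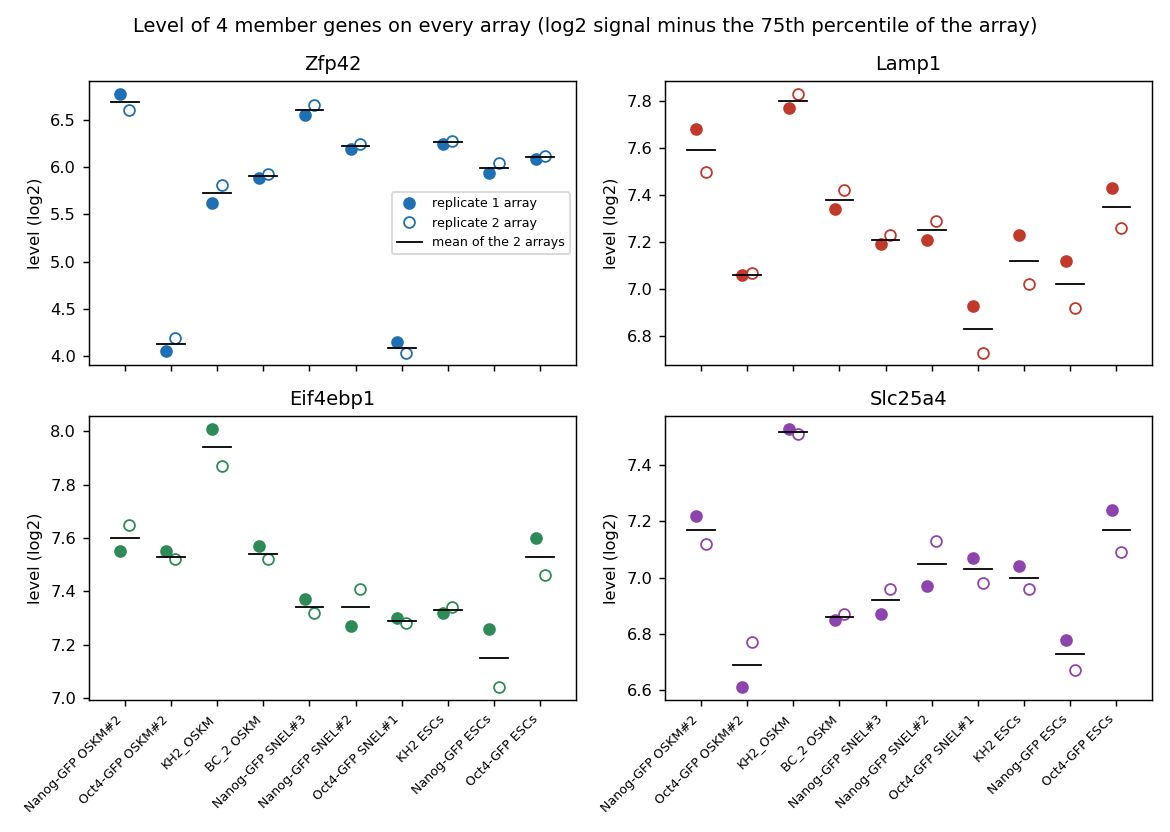
Level (log2 signal minus the array's 75th percentile) of Zfp42, Lamp1, Eif4ebp1 and Slc25a4 on every array, by line. KH2_OSKM is above all other arrays for Lamp1, Eif4ebp1 and Slc25a4, and for Zfp42 the low lines are Oct4-GFP OSKM#2 and Oct4-GFP SNEL#1.

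Of the 6 genes for basement membrane and adhesion, 5 stood above 0 in KH2_OSKM, with a median of 0.35. In Nanog-GFP OSKM#2 all 6 stood above 0, 4 were called higher and 0 lower, and the median was 0.3. Nanog-GFP SNEL#3 had 1 called higher and 3 lower, with a median of -0.31. Col4a1, which encodes a chain of type IV collagen, had 0.74 on both Nanog-GFP OSKM#2 arrays, and the other 18 ran from -2.46 over a median of -1.08 to -0.08 (1.93 ± 0.07, limma adjusted p = 7.06e-09). It was lowest in Nanog-GFP SNEL#2 (-1.5, adjusted p = 5.03e-08). Col4a2, which lies head to head with Col4a1, was higher in Nanog-GFP OSKM#2 (0.98, limma adjusted p = 6.47e-05) and in Oct4-GFP SNEL#1 (1.26), and lower in Nanog-GFP SNEL#3 (-1.45) and Nanog-GFP SNEL#2 (-1.55). KH2_OSKM differences were -0.06 for Col4a1 and 0.58 for Col4a2. Both genes are also on the list of 8 primitive endoderm markers, whose summed signal did not follow them. It was 19.2 in Nanog-GFP OSKM#2, 31.7 in Nanog-GFP SNEL#2 and 38 in Nanog-GFP SNEL#3. The part of such cells in these differences was not tested.

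The defensins, encoded in clusters on this stretch, were taken as a list of their own. It held 43 names, of which 14 were detected, and probes of such close paralogs can share sequence, so their signals may not be separable. BC_2 OSKM had 8 called higher and 0 lower, with a median difference of 1.31, and Nanog-GFP OSKM#2 5 higher and 0 lower, with 0.81. In Nanog-GFP SNEL#3, 10 of the 14 probes were well above background on neither array and have only a bound there. The 4 measured on both arrays, Defa3, Defa23, Defa40 and Defa32, were called lower by limma, with -0.88, -0.86, -0.97 and -0.95. In Oct4-GFP SNEL#1, where 9 of the 14 were well above background on 1 array only, these 4 were also called lower, with -0.71, -0.65, -0.69 and -0.61. In KH2_OSKM 12 of the 14 stood above 0, with a median of 0.19. These medians include probes well above background on neither array of the line, 4 in BC_2 OSKM, 2 in Nanog-GFP OSKM#2 and 2 in KH2_OSKM. Defa3 had 0.42 on both BC_2 OSKM arrays (1.77 ± 0.09, limma adjusted p = 3.8e-08), whereas its KH2_OSKM difference was -0.02.

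The members with the largest KH2_OSKM differences were of several kinds, and some were also high in BC_2 OSKM. Got1l1, named for its likeness to an aspartate aminotransferase, had 1.15 and 1.17 in KH2_OSKM. The other 18 arrays ran from -2.88 over a median of -0.87 to 0.14. KH2 ESCs held the lowest Got1l1 levels, -2.67 and -2.88 (-2.12 ± 0.08, limma adjusted p = 6.83e-09). Ankrd37, an ankyrin-repeat gene, had 3.72 and 3.69 in KH2_OSKM and 3.53 and 3.51 in BC_2 OSKM, but -0.02 and -0.12 in Nanog-GFP SNEL#3 (-2.29 ± 0.07, limma adjusted p = 4.35e-10). Ufsp2, a UFM1 protease gene on the opposite strand whose probe lies beside that of Ankrd37, had 3.55 and 3.63 in KH2_OSKM and 3.1 and 3.13 in BC_2 OSKM, and 0.32 and 0.45 in Nanog-GFP SNEL#2. The 2 genes ranked KH2_OSKM and BC_2 OSKM first alike. Spaca7, a sperm acrosome gene, had differences of 1.95 in KH2_OSKM and 1.56 in BC_2 OSKM. Gm6100 stood at 1.46 in KH2_OSKM and 0 in BC_2 OSKM, and Gm16530 at 1.76, but the last rests on replicate 2 alone (levels -3.14 and 0.57).

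Of the 5 members with the lowest KH2_OSKM differences, 3 (Zmat4, Arglu1 and Xkr5) were also low in BC_2 OSKM and Oct4-GFP SNEL#1. Zmat4, a zinc-finger gene, had -1.17 on both KH2_OSKM arrays, -1.88 and -1.94 in BC_2 OSKM, -1.65 and -1.58 in Oct4-GFP SNEL#1 and -1.01 and -1.1 in Nanog-GFP ESCs. It had 0.81 to 1.69 in Nanog-GFP OSKM#2, both Nanog-GFP SNEL lines, KH2 ESCs and Oct4-GFP ESCs, with -0.13 and 0 in Oct4-GFP OSKM#2. The spread between lines was thus far wider than that between arrays of a line, and BC_2 OSKM lay below all other arrays (-2.18 ± 0.05, limma adjusted p = 7.62e-11). Xkr5 had -0.65 in KH2_OSKM, -1.25 in BC_2 OSKM and -1.02 in Oct4-GFP SNEL#1, and Arglu1 was low in those lines too. BB094273 stood at -0.85 and chr8:35143801-35144482_F at -0.65 in KH2_OSKM.

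Adgra2, an adhesion receptor gene of the Wnt7 pathway, was not well above background in Nanog-GFP SNEL#3 and at least 6.49-fold lower there than in the mean of the other 9 lines (limma adjusted p = 3.02e-10). It was higher in Oct4-GFP SNEL#1 (3.29 ± 0.12, adjusted p = 3.8e-09). Such a bound sets the mean of the other lines against the lowest signal scored well above background on each array of the dim line. Where the array's own signal is higher, that signal is used. For Kbtbd11 in Nanog-GFP SNEL#3 the bound, -4.4, is thus next to the measured level, -4.41. The stretch chr8:34627209-34667814_F was at least 5.99-fold lower in BC_2 OSKM (limma adjusted p = 1.75e-08). For Kbtbd11 the probes disagreed, so no direction is given for the gene: the probe at 15027026 was at least 3.69-fold lower in Nanog-GFP SNEL#3 (limma adjusted p = 2.26e-07), whereas the brighter one at 15033192 was higher there (0.33, adjusted p = 0.00153). In BC_2 OSKM these probes gave 2.15 and -1.48. Adam32, a sperm-surface protein gene, had 0.32 and 0.37 in BC_2 OSKM, and the other 18 arrays ran from -4.07 over a median of -3.46 to -2.33 (3.77 ± 0.18, limma adjusted p = 2.21e-08).

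The stretch chr8:12535648-12544923_R, printed above, ranked the lines alike on most of its probes. Its probe at 12541322 had -0.04 and -0.07 in Nanog-GFP OSKM#2, -0.53 and -0.4 in Nanog-GFP SNEL#3 and -3.55 and -3.38 in Oct4-GFP SNEL#1. Against the other 9 lines it was higher in Nanog-GFP OSKM#2 (1.49 ± 0.07, limma adjusted p = 2.47e-08) and lower in Oct4-GFP SNEL#1 (-2.3 ± 0.07, adjusted p = 1.34e-09). KH2_OSKM stood at -1.55 and -1.67, inside the range of the others. The differences of the probe at 12541262 were 1.28 in Nanog-GFP OSKM#2 and -1.93 in Oct4-GFP SNEL#1, those at 12541434 0.98 and -1.23, and those at 12541494 1.18 and -2.28, the last from a line with 1 of 2 arrays well above background at that probe. The probe at 12541096, well above background on 16 arrays, did not follow them, at -0.04 and -0.05. The order thus held over 4 of the 5 probes of this stretch, which lie in 1 region and are not independent.

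The 10 members with the highest mean level were split in KH2_OSKM. Eif4ebp1 and Lamp1, given above, stood at 0.5 and 0.57. The other 8 stood below 0: Gm10063 at -0.28, F10, the gene of coagulation factor X, at -0.21, the pseudogene Nudc-ps1 at -0.13, Gm9457 at -0.11, Gm4889 at -0.08, Gm6010 at -0.07, Gm10313 at -0.05 and ENSMUST00000080279 at -0.01. Most of these 8 are predicted genes or pseudogenes, whose probes can share sequence with genes elsewhere.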

How the data were processed

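Total RNA of 10 lines was measured on 20 arrays of 1 colour, 2 per line. Per the file headers, the authors scanned the arrays with Agilent Feature Extraction, which subtracted background within each array and deposited spot intensity, with probe positions in mm9; replicates were not pooled. The authors' deposited value table holds log2 values of nearly equal distribution per array, and the submitters' processing notes name limma; its centring is not given in the sources used here, and it served as an alternative. Flags of 0 or 1 for spots were used as deposited.

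Here, outlier spots were set missing, repeated spots averaged, and log2 intensity was taken minus the array's 75th percentile. A probe was kept if its spot was scored well above background on 4 or more arrays. limma 3.58.1 (R 4.3.3) was fitted to all 38756 probes: each line against the other 9 on the arrays, and groups of lines on line means, with Benjamini-Hochberg adjustment at 0.05. Segment and bin medians carry no test. The fits were tested on simulated data. Files' gene names were updated for 3093 probes through RefSeq accessions (26413 of 55681 probes matched). Named genes, 1 probe each (the brightest), were the 10 largest and 5 lowest KH2_OSKM differences among probes well above background on all arrays, the 10 highest levels, up to 10 called probes per other comparison, the 5 nearest the boundary on each side, and the role lists. Members and lists were chosen with earlier results of these data known. Alternatives were other scalings, background corrections, filters, boundaries and bins, 1 probe per gene, the slide, the replicate number and left-out arrays or lines. Replicate differences were partly shared between lines, as given below, and the replicate number largely went with the slide.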

Additional observations from a re-analysis of the deposited data

Results flagged for a closer look

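Within the 4 OSKM lines, 139 quantities were examined for a line far from the other 3, and 8 were found. Chance finds about 1 in 20 among quantities chosen without regard to the lines, a rate that does not apply here, since many of the genes were named for their values in these lines and the boundary was picked on KH2_OSKM; the values are a description. The proximal median of chromosome 8 minus the distal one was 0.243 in KH2_OSKM, against -0.031 to 0.007 in the other 3, which restates the choice of the boundary. The genes that stood apart in KH2_OSKM were Gm6100 and Gm16530, both named for their large difference in that line, and Eif4ebp1, named by its role and level. Gm6100 had a level of 4.14, against 2.68 to 2.83, and Eif4ebp1 of 7.94, against 7.53 to 7.6. Gm16530 had -1.28, against -3.12 to -2.97, a mean of 2 arrays that differed widely.

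The other 4 were low in BC_2 OSKM. Myom2, a gene of the muscle M band, had a level of -0.43, against 0.01 to 0.09. Nrg1, the neuregulin ligand gene, had -3.58, against -2.18 to -1.97. Slc25a15, the mitochondrial ornithine carrier, had -2.62, against -2.01 to -1.9. The stretch chr8:34627209-34667814_F had -5.89, against -3.01 to -2.54, and was not well above background in BC_2 OSKM.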

How the results depend on the processing

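Of 140 recomputed proximal medians, 117 moved by less than the pooled SD between arrays of a line. For 13 of 20 shares of bins and 172 of 182 counts of members called, the change was classed as small. That class took in falls without replicate 1 of the line, from 233 to 158 in Nanog-GFP OSKM#2 and 246 to 174 in BC_2 OSKM. It also took in group comparisons that stayed at 0, which says nothing of stability, since few probes were called anywhere. The median of KH2_OSKM was 0.116 with quantile scaling, 0.145 with normexp, 0.083 in the deposited value table, 0.186 on probes detected on all arrays, 0.474 with no filter and 0.142 without its replicate 1; leaving out replicate 1 or 2 of every line gave 0.141 to 0.361. Normexp and no filter gave 0.062 and 0.033 in Nanog-GFP OSKM#2, 0.11 and 0.094 in Nanog-GFP SNEL#3 (sign changed), 0.048 and 0.042 in Oct4-GFP ESCs, and -0.049 and -0.047 in Oct4-GFP SNEL#1, which had -0.073 in the deposited table, -0.091 after centring and -0.291 to -0.078 without a replicate. Nanog-GFP ESCs had -0.165 with no filter. Against the ESC lines, KH2 ESCs had -0.059 and Nanog-GFP ESCs -0.142.

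The share of bins above the line's all-probe median became 9.1% (2 Mb) and 5.9% (40 probes) in Oct4-GFP OSKM#2, 27.3% and 29.4% in Nanog-GFP SNEL#2, 27.3% and 35.3% in Nanog-GFP ESCs, and 36.4% (2 Mb) in Nanog-GFP SNEL#3. Leaving out an array of the line or KH2_OSKM replicate 1 gave 106 to 187 members called in Oct4-GFP OSKM#2, 105 to 208 in Nanog-GFP SNEL#2, 72 to 149 in Nanog-GFP ESCs and 119 to 215 in Oct4-GFP ESCs, the lower value in each without an array of that line.

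The replicate differences were partly shared between lines: over 45 pairs of lines their correlation ran from -0.1 to 0.47, with 29 above 0.1. Replicate 1 arrays lay on slide 1, save those of Nanog-GFP ESCs and Oct4-GFP ESCs on slide 2. Replicate 2 arrays lay on slides 2 and 3, and slide 3 held only ESC lines and Oct4-GFP SNEL#1. Replicate and slide thus cannot be told apart for most lines. With the replicate block, 1 member was called in poor against ESC lines, where 31 of all probes were called. Between SNEL and OSKM lines, 3 members were called when all 20 arrays entered with a random term for the line. In that fit 93 of all probes were called. When a line or KH2_OSKM replicate 1 was left out, 0 to 4 members were called, with 4 without Oct4-GFP SNEL#1. So few calls cannot decide whether the members differ from probes at large. The cause of these changes was not tested, beyond fewer arrays or other probes. Background limits dim probes: those below it have only a bound, and 2 arrays per line limit the precision.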
